A study of Mus musculus with 15 samples.

Results

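The clustered histone genes encode the bulk histones that package newly copied DNA. They were taken as every row of the gene table whose name begins with Hist1h, Hist2h, Hist3h or Hist4h, which gave 67 of 26061 genes. Membership was set by name alone, but the family was chosen with earlier results of these data known. There were 6 genes for the linker histone H1, 19 for H2A, 18 for H2B, 11 for H3 and 13 for H4. All 67 genes were found in the GENCODE vM1 annotation of the mm9 mouse genome. Clusters were assigned by name: 55 genes to Hist1 on chromosome 13, 9 to Hist2 on chromosome 3, 2 to Hist3 on chromosome 11 and 1 to Hist4 on chromosome 6. Hist1h2al, counted in Hist1 by its name, lies at chr13:51298057-51298434, far from the other Hist1 genes, which lie between chr13:21807632 and chr13:24026720. All 67 had enough reads to be tested, with at least 14 reads in every library.

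RNA was sequenced from E14 cells, a mouse embryonic stem cell (ESC) line of the 129/Ola background grown without feeders in serum and LIF. Cells carried a lentiviral pLKO.1 vector with a non-targeting short hairpin RNA (shScr), a hairpin against Tet1 (shTet1) or a hairpin against Tet2 (shTet2), with 1 hairpin sequence per group and 5 libraries in each. Selection with puromycin began 24 h after infection, and the transduced population was collected after 3 days of it. TET1 and TET2 oxidise 5-methylcytosine in DNA, and the groups ask how depletion of either enzyme alters the RNA of ESCs.

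Replication-dependent histone genes are unusual among protein-coding genes. They mostly lack introns, lie in clusters, and are transcribed mainly in S phase, when NPAT and its partners act at the histone locus body. Their mRNAs usually end without a poly(A) tail, in a short stem-loop that is bound by SLBP and formed by a cut guided by the U7 small nuclear ribonucleoprotein. Such mRNAs are lost when RNA is selected by its poly(A) tail, but are kept in total RNA depleted of rRNA, as was used here. In bulk RNA, fewer cells in S phase and less histone mRNA per cell cannot be told apart.

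The stem-loop is the mark that sets these mRNAs apart, and it was therefore looked up first. Within 150 bases behind an annotated stop codon, the letters CTTTTNAG (N is any base), with GG 2 bases before them and CC 2 bases behind them, were present for 61 of the 67 genes (91.0%), against 64 of 22379 protein-coding genes in the annotation (0.286%). The motif was searched on the coding strand alone, and it began 22 to 59 bases behind the stop. One gene of each type and the germ cell gene Hist1h2ba are shown with the 16 bases of the stem-loop in capitals.
Hist1h1a (H1): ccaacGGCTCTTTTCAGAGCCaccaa
Hist2h2ac (H2A): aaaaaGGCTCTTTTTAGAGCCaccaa
Hist1h2ba (H2B): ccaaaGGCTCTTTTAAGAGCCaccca
Hist2h3c1 (H3): acaaaGGCTCTTTTCAGAGCCaccac
Hist1h4d (H4): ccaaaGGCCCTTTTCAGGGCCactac
Hist2h4 (H4): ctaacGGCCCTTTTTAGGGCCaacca
These stretches lie in mm9 at chr13:23856256-23856281 (+ strand) for Hist1h1a, chr3:96024336-96024361 (- strand) for Hist2h2ac, chr13:24025594-24025619 (- strand) for Hist1h2ba, chr3:96051245-96051270 (+ strand) for Hist2h3c1, chr13:23673814-23673839 (+ strand) for Hist1h4d and chr3:96066857-96066882 (- strand) for Hist2h4. The stem differed by type. All 49 stem-loops of H1, H2A, H2B and H3 genes opened with GGCTC, whereas those of the 12 H4 genes opened with GGCCC in 10 and GGTCC in 2. The letters were not found behind the stop of Hist2h2be, Hist2h2bb, Hist1h2an, Hist1h3g, Hist1h4a and Hist1h2al.

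Promoters were taken from RefSeq (GRCm38.p6, 250 bases before to 50 after the start), where 60 of the 67 genes were matched. No entry was matched for Hist2h2be, Hist2h4, Hist1h2ap, Hist1h3f, Hist1h2bc, Hist1h3a and Hist1h2al. The octamer ATTTGCAT, the letters recognised by POU factors such as OCT1, was present on either strand in 7 of 17 H2A and 7 of 16 H2B promoters and in none of the 6 H1, 9 H3 and 12 H4 promoters, against 1.97% of 27025 genes. CCAAT was present in 51 of 60 promoters (85.0%, against 41.1% of all genes) but in 3 of 12 H4 promoters, and TATAAA in 35 of 60 (58.3%, against 15.7%). The octamer windows of Hist2h2ac and of a pair of germ cell genes described below are shown with the octamer in capitals, each read along its own gene.
Hist2h2ac: aacgccttATGCAAATtaggtctc
Hist1h2aa: ctgggtgcATGCAAATaaggggaa
Hist1h2ba: ttccccttATTTGCATgcacccag
The windows matched mm9 once each, at chr3:96024988-96025011 for Hist2h2ac and at chr13:24026174-24026197 for both germ cell genes, which are read in opposite directions from 1 shared window. A match of letters is a description and was not taken as a bound site.

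Total gene reads lay between 18580994 and 22404933 per library in shScr, between 17660299 and 28008886 in shTet1, and between 15258291 and 35432425 in shTet2. The targeted genes were lower in the groups named for them: Tet1 was at 27.8% of its shScr mean in shTet1 (log2 difference -1.84, limma adjusted p = 0.000228), and Tet2 at 26.6% in shTet2 (log2 difference -1.90, limma adjusted p = 3.67e-07). All 8 ESC markers had values between 10.43 and 15.32 in every library, whereas 7 fibroblast markers summed to 6.08 to 17.1 and 6 primitive endoderm markers to 4.47 to 28.0 RPM (reads per 1000000 gene reads). Reads of olfactory and vomeronasal receptor genes, which belong to sensory neurons, served as a gauge of background and summed to 54.5 to 64.7 RPM in shScr replicate 4, shTet1 replicates 3 and 4 and shTet2 replicate 4, and to 11.1 to 26.5 in the other 11 libraries. The part of this background in the histone values was not tested. Values without those 4 libraries are given for the histone sums, the median of shTet1 against shScr and Hist2h2ac.

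Levels differed widely among the 67 genes. Per kilobase of annotated exon, Hist1h4d (H4) had the highest level, with 52196 ± 20504 normalised reads (mean ± SD, n = 15 libraries). It was followed by the linker histone gene Hist1h1a (27357 ± 7678), by Hist2h2bb (H2B, 21813 ± 5687), Hist2h2aa1 (H2A, 19115 ± 4346) and Hist1h4k (H4, 18447 ± 5125). The last 3 differed by less than their SD over libraries. The most abundant H3 genes were lower per kilobase, at 3908 ± 861 for Hist2h3c1 and 3399 ± 1150 for Hist1h3e. The lowest levels were those of Hist2h2be (12.7 ± 2.27) and Hist3h2ba (74.4 ± 29.0), both H2B genes. These levels depend on the annotated length, which for some genes stops near the end of the coding part.

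Many of the genes are close copies, so that single-gene values are uncertain. Of the 67 genes, 58 share at least 1 stretch of 75 bases, the read length, with another of them, and 25 share at least 50% of their stretches. Hist2h2aa1 and Hist2h2aa2, Hist1h2ao and Hist1h2ap, and Hist1h2bq and Hist1h2br share 100% of their stretches. On the same strand, 97.2% of the exons of Hist2h2aa1 are also annotated as Hist2h3c1, and the 3 genes Hist2h2aa1, Hist2h2aa2 and Hist2h3c1 are best read as 1 measurement. Hist2h2ab lies wholly opposite Gm15444, 60.9% of Hist1h4b lies opposite 4930558J22Rik, and 35.6% of Hist3h2a is shared with Trim17.

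Together, the 67 genes held between 0.846% and 1.87% of all gene reads. In shScr the sum was 12618, 10555, 12183, 18683 and 12949 RPM in replicates 1 to 5. In shTet1 it was 13736, 15269, 11409, 18469 and 14702. In shTet2 it was 12189, 11354, 8458, 17287 and 10881. Replicate 4 was the highest library of every group, and with all libraries the groups overlapped. Without the 4 libraries of high receptor share, the sums were 10555 to 12949 in shScr, 13736 to 15269 in shTet1 and 8458 to 12189 in shTet2. The shTet1 libraries that remained then lay above those of both other groups, which was not tested.

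The mean (± SD, n = 5) was 13397 ± 3094 for shScr, 14717 ± 2563 for shTet1 and 12034 ± 3248 for shTet2, so that each knockdown differed from shScr by less than the SD within groups. The gap between shTet1 and shTet2 lay between the SDs of those groups. The shTet2 library was below the shTet1 library of the same number in 5 of 5 pairs. H2A genes held 28.8% of the histone reads, H2B 25.7%, H1 21.2%, H4 16.5% and H3 7.86%. A single gene made up a large part of some types: Hist2h2bb held 44.1% of the H2B reads and Hist1h4d 42.7% of the H4 reads. Hist2h3c1 held 50.5% of the reads counted as H3, but these cannot be told apart from reads of Hist2h2aa1, an H2A gene whose exons it contains, so the H3 sum may hold H2A reads. For H2A the mean was 4226 ± 978 RPM in shTet1 and 3280 ± 1023 in shTet2. The shTet2 mean was 77.6% of the shTet1 mean for H2A, 83.5% for H4, 83.8% for H1 and 85.8% for H2B. For H3 the shTet2 mean was 75.3% of the shTet1 mean, a value that includes Hist2h3c1 and cannot be assigned to H3 alone. For H4 the shTet1 mean was 126.4% of the shScr mean.

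**Figure D1:**
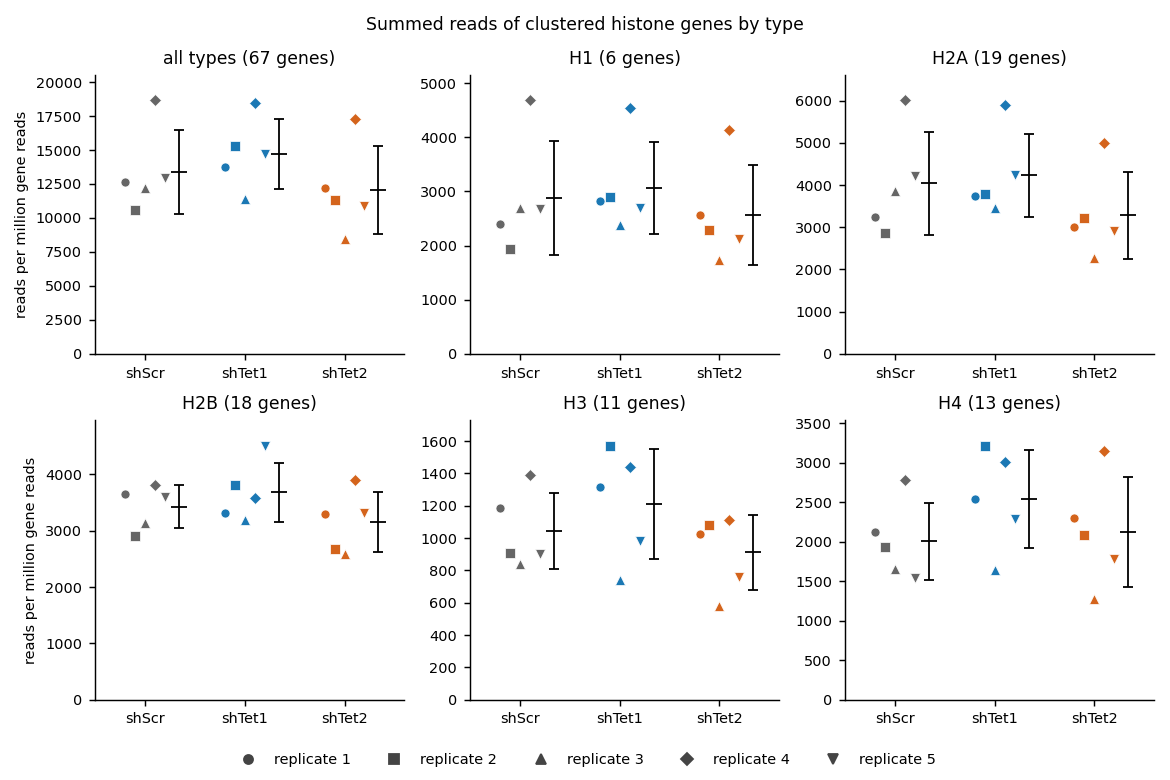
Summed reads of the clustered histone genes in RPM, for all 67 genes and by histone type. Each point is 1 library, marker shapes give the replicate number, and bars give the mean ± SD of 5 libraries. Replicate 4 is the highest point of each group for all types together, and the groups overlap.

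In shTet1 against shScr, none of the 67 genes was called, with 0.0718% of the 19490 genes tested called in this comparison (limma, adjusted p under 0.05). No histone gene reached an unadjusted p under 0.05 either, which 11.8% of all genes tested did, and voom on the recovered reads also called 0. Point estimates were above 0 for 51 of 67 genes, including 13 of 13 H4 and 11 of 11 H3 genes, and their median was 0.12 on the log2 scale (0.01 over all genes tested). By type the medians were 0.25 for H4, 0.12 for H3, 0.09 for H2B, 0.04 for H1 and 0.01 for H2A. With the replicate number as a block, 4.8% of all genes and again none of the histone genes were called.

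The lowest p-values for a higher level in shTet1 were those of Hist2h4 and Hist1h4b. Hist2h4 stood at 9.26, 8.07, 9.15, 9.04 and 8.98 in shScr and at 9.35, 9.84, 8.62, 9.61 and 9.31 in shTet1, a difference of 0.44 ± 0.23 (log2 scale, SE, limma adjusted p = 0.484). Hist1h4b differed by 0.25 ± 0.19 (adjusted p = 0.662, limma). The abundant Hist1h4d differed by 0.37 ± 0.28 (limma adjusted p = 0.674). None of these differences exceeded the spread between replicates.

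The half-width of the 95% interval had a median of 0.47 (log2 scale) over the 67 genes, and 63 of the 67 intervals for shTet1 against shScr lay within -1 and 1. The median of 0.12 rested on a part of the libraries: it was 0.25 within replicates 1 and 2, -0.01 within replicates 3 to 5, and 0.27 without the 4 libraries of high receptor share.

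In shTet2 against shScr, none of the 67 genes was called by limma, with 0.39% of all genes tested called. An unadjusted p under 0.05 was reached by 4 of 67 (5.97%, against 11.6% of all genes), and voom called 0. Point estimates were below 0 for 54 of 67 genes, with a median of -0.13 (0.04 over all genes tested). H2A genes had the lowest median (-0.38, 18 of 19 below 0), followed by H1 (-0.15), H3 (-0.13), H2B (-0.06) and H4 (-0.02). All 9 genes of the Hist2 cluster were below 0, with a median of -0.40 that was the value of Hist2h2aa1. That gene is read as 1 measurement with Hist2h2aa2 and Hist2h3c1. The median over all 67 was -0.11 within replicates 1 and 2 and -0.21 within replicates 3 to 5.

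Hist2h2ac, an H2A gene, had the lowest p-value in that direction, with a difference of -0.66 ± 0.21 (log2 scale, limma adjusted p = 0.203). Hist2h3c1 followed with -0.39 ± 0.16 (limma adjusted p = 0.333). In the other direction the lowest p-values were those of Hist1h2ba at 0.72 ± 0.37 (limma adjusted p = 0.480) and of the H2B gene Hist1h2be at 0.13 ± 0.15 (limma adjusted p = 0.827). Of the 67 intervals, 62 lay within -1 and 1.

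**Figure D2:**
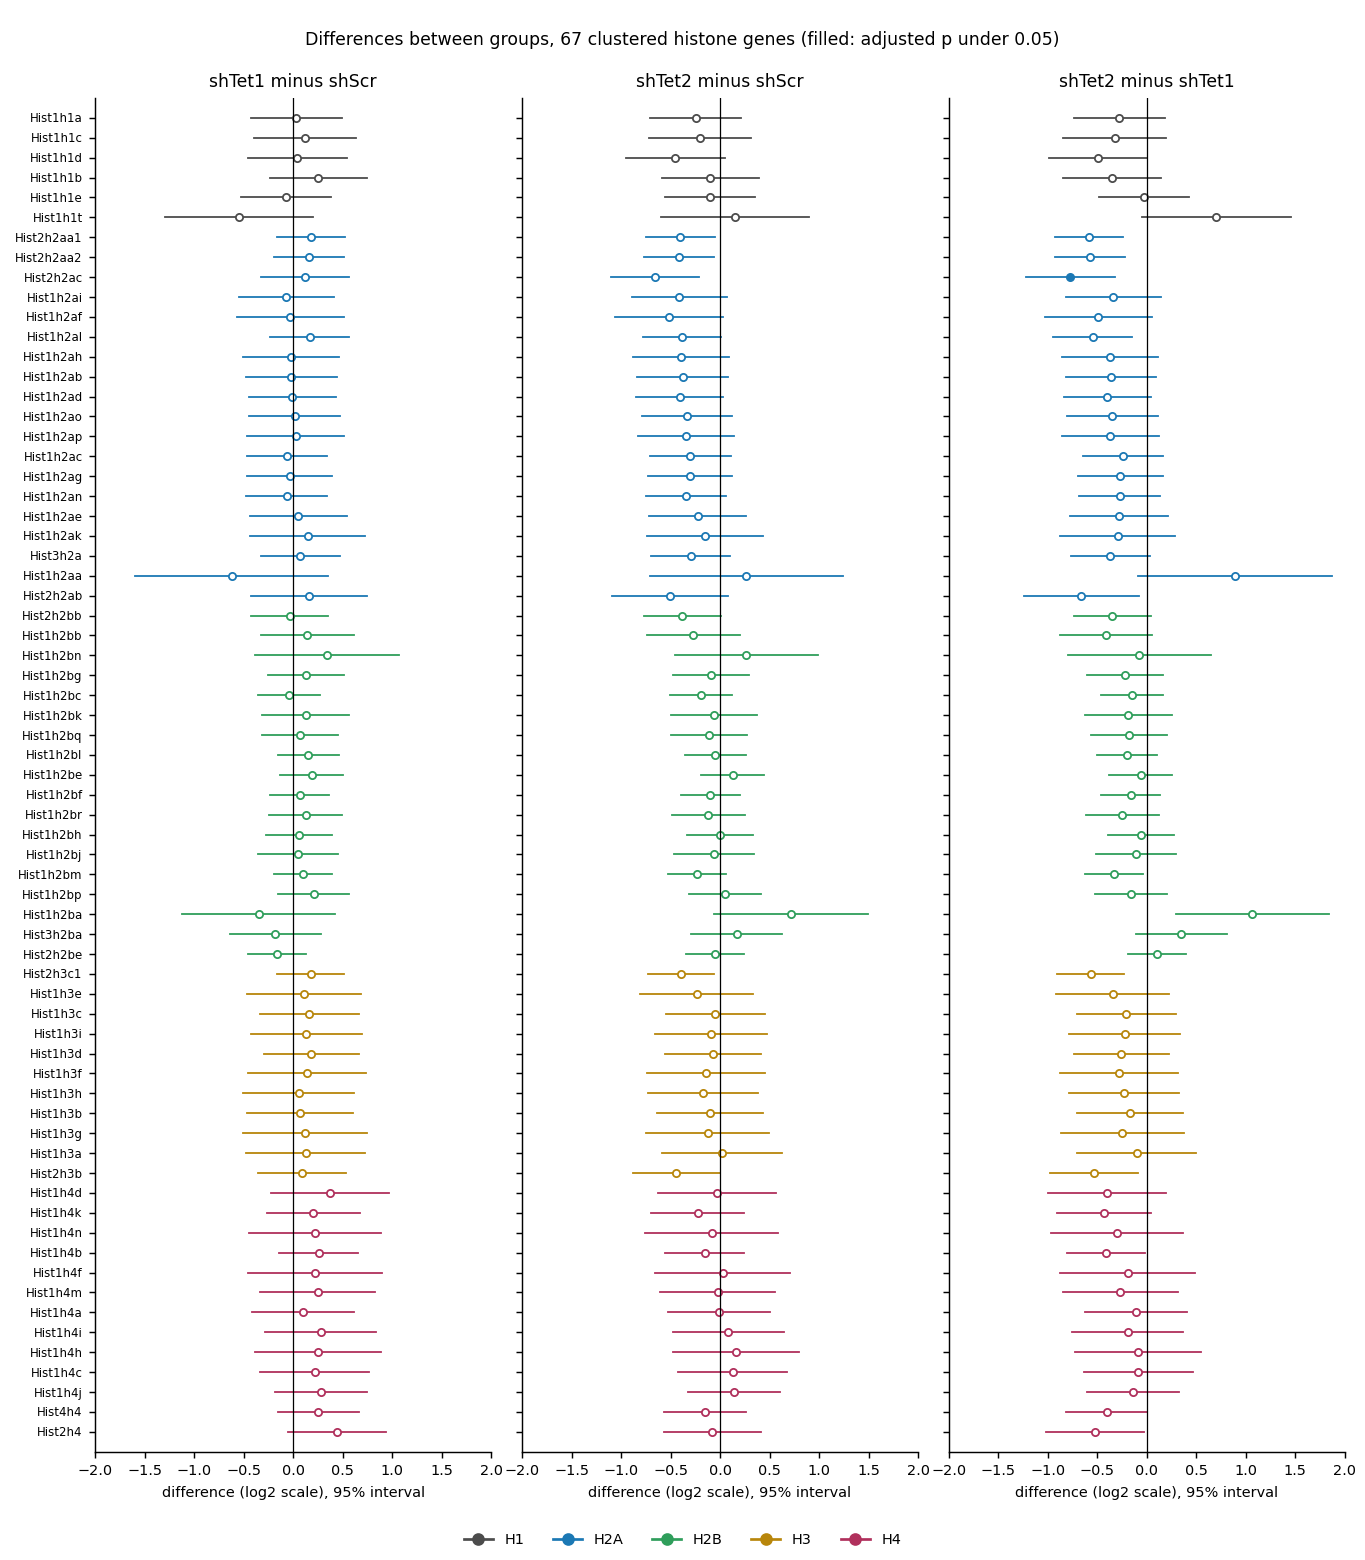
Differences of the 67 genes between groups on the log2 scale of the deposited values, with 95% intervals from limma. Colours give the histone type, and a filled point marks an adjusted p under 0.05. The only filled point is Hist2h2ac in shTet2 minus shTet1, and Hist1h2ba, Hist1h2aa, Hist1h1t, Hist3h2ba and Hist2h2be lie to the right of 0 there while the other 62 genes lie to the left.

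The direct comparison of shTet2 with shTet1 gave the widest difference. Of the 67 genes, 1 was called lower in shTet2, with 1.36% of all genes tested called lower (limma, adjusted p under 0.05). Point estimates were below 0 for 62 of 67 genes, with a median of -0.27 (0.01 over all genes tested), and the medians by type were -0.37 for H2A, -0.30 for H1, -0.27 for H4, -0.25 for H3 and -0.16 for H2B. An unadjusted p under 0.05 was reached by 11 genes (16.4%, against 15.7% of all genes tested). In the same comparison the 8 ESC markers had a median of -0.34 and the 6 primitive endoderm markers of -0.41 (-0.66 in shTet2 against shScr). None of these markers was called without the block, and 1 of each list fell with it. Their part in the histone values was not tested.

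The replicate numbers were taken to pair the libraries of these groups. The number as a block was fitted to all 15 libraries, so the shScr libraries also entered it, although the numbers did not pass as pairs for shTet2 with shScr. With the block 18 of 67 genes (26.9%) fell in shTet2 relative to shTet1, against 4.65% of all genes tested, and 3 (4.48%) rose, against 6.52%. The 18 genes were 11 of H2A, 2 each of H2B, H3 and H4, and 1 of H1. Among them are Hist2h2aa1, Hist2h2aa2 and Hist2h3c1, read as 1 measurement, and Hist1h2ao and Hist1h2ap, which share 100% of their stretches. The 18 genes are thus fewer than 18 separate measurements, and the share of 26.9% counts close copies more than once. The block total of 21 genes was reduced to 11 without shTet1 replicate 2 or shTet2 replicate 5, to 12 without shTet1 replicate 5 and to 13 without shTet2 replicate 3. In each of the 15 blocked fits that left out a library, Hist2h2ac, Hist2h2aa1, Hist2h2aa2, Hist2h3c1, Hist1h1d, Hist1h2af and Hist1h2al remained called lower and Hist1h2ba remained called higher.

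Hist2h2ac was the gene called without the block. Its values in shTet1 were 12.33, 12.34, 12.66, 13.15 and 13.17 in replicates 1 to 5, and in shTet2 they were 11.83, 12.09, 11.42, 12.22 and 12.23. The highest shTet2 library was just below the lowest shTet1 library, and shScr overlapped both with 12.19, 12.24, 12.80, 12.78 and 13.06. The difference was -0.77 ± 0.21 (95% interval -1.22 to -0.32, limma adjusted p = 0.0468, exact two-sided permutation p = 0.00794, the smallest that 5 against 5 libraries can give). It was -0.37 within replicates 1 and 2 and -1.04 within replicates 3 to 5. The call was close to the threshold: it was lost in each fit that left out a library of shTet2 other than replicate 5, or shTet1 replicate 3, 4 or 5, or shScr replicate 3 (adjusted p 0.0538 to 0.123, limma), and also without the 4 libraries of high receptor share (limma adjusted p = 0.236). With the replicate block the adjusted p was 0.00200.

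Values of shTet2 and shTet1 did not overlap for 2 of the 67 genes (2.99%), against 6.04% of all genes tested. The second, named after its values were seen, was the H2B gene Hist1h2bm, with a difference of -0.33 ± 0.14 (limma adjusted p = 0.238).

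The Hist2 cluster is 59.1 kb in length at chr3:96023839-96082924. Its median in shTet2 against shTet1 was the lowest of the clusters, with -0.57 over 9 genes against -0.25 over 55 genes of Hist1. That median was the value of Hist2h3c1, which is read as 1 measurement with Hist2h2aa1 and Hist2h2aa2. The cluster holds H2A genes, the type with the lowest median, and cluster and type were not told apart. Under the block, 6 of the 9 Hist2 genes fell, against 4.65% of all genes tested. They were Hist2h2ab, Hist2h2ac, Hist2h2aa1, Hist2h2aa2, Hist2h3c1 and Hist2h3b, of which the last 4 share exons or sequence, so that the 6 genes are fewer than 6 separate measurements. The H3 gene Hist2h3c1 differed by -0.57 ± 0.16 (limma adjusted p = 0.0508, with the block 0.00331), and Hist2h2aa1 by -0.58 ± 0.16 (limma adjusted p = 0.0525, with the block 0.00325). Hist2h2ab, which shares 10.3% of its stretches, differed by -0.66 (limma adjusted p = 0.238, with the block 0.0156). The abundant Hist2h2bb, in which no stem-loop was found, differed by -0.35 ± 0.19 (limma adjusted p = 0.393).

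For the H1 and H4 genes with the highest values, the groups overlapped. Hist1h1a was at 14.13, 13.86, 13.70, 14.70 and 14.10 in shTet2 and at 14.14, 14.09, 14.19, 14.92 and 14.53 in shTet1, a difference of -0.28 ± 0.22 (limma adjusted p = 0.635) that was below 0 in 5 of 5 pairs. Hist1h1c, another linker histone gene, differed by -0.33 ± 0.25 (limma adjusted p = 0.611). Hist1h4d differed by -0.40 ± 0.28 and Hist1h4k by -0.43 ± 0.23. In the fit without the block, Hist1h4k was at -0.24 when shTet2 replicate 3 was left out. With the block Hist1h4k passed (limma adjusted p = 0.0433), but it was called in 6 of the 15 blocked fits that left out a library.

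Among the highest H2B and H3 genes, Hist1h2bb differed by -0.41 ± 0.22 (limma adjusted p = 0.405, with the block 0.0421) and Hist1h3e by -0.35 ± 0.27 (limma adjusted p = 0.632, with the block 0.127). The medians were nearly equal for the 61 genes in which the stem-loop letters were found (-0.27) and the 6 in which they were not (-0.26). A missing match of these letters does not show that an mRNA lacks a stem-loop.

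In shTet2 against shTet1, 5 of the 67 genes had point estimates above 0. Of these, the H2B genes Hist3h2ba (0.35 ± 0.22) and Hist2h2be (0.11 ± 0.14) passed in neither fit, and Hist1h1t, Hist1h2aa and Hist1h2ba passed with the block. They encode histones known from male germ cells, the testis-type linker histone H1t and the testis-type H2A and H2B. All 3 had reads in every ESC library, with a lowest count of 204 for Hist1h1t, 817 for Hist1h2aa and 139 for Hist1h2ba. A stem-loop was found behind the stop of each. Hist1h2ba shares 33.3% of its 75-base stretches with other clustered histone genes, whereas Hist1h1t and Hist1h2aa share 0%. The part of reads from other copies in the Hist1h2ba count was not tested.

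Hist1h2ba was at 8.24, 8.47, 7.86, 8.87 and 8.13 in shTet1 replicates 1 to 5, and at 9.68, 9.13, 9.02, 10.45 and 8.61 in shTet2. In shScr it was at 8.94, 8.81, 8.19, 9.90 and 7.48. The shTet2 library was above both the shScr and the shTet1 library of its number in 5 of 5 pairs, although the groups overlapped. The difference between shTet2 and shTet1 was 1.06 ± 0.37 (95% interval 0.29 to 1.84, limma adjusted p = 0.129), and it passed with the replicate block (adjusted p = 0.00117, limma). It was 1.05 within replicates 1 and 2 and 1.07 within replicates 3 to 5.

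Hist1h2aa was at 9.31, 9.85, 10.26, 11.48 and 10.43 in shTet1 and at 11.36, 11.06, 10.51, 12.78 and 10.07 in shTet2. Its values in shScr were 10.84, 10.26, 10.61, 12.35 and 10.39. Replicate 4 was the highest of every group, and shTet2 was above shTet1 in 4 of 5 pairs. The difference was 0.89 ± 0.47 (limma adjusted p = 0.383, with the block 0.0221), with 1.63 within replicates 1 and 2 and 0.40 within replicates 3 to 5. Without shTet2 replicate 4 it was 0.48 in the fit without the block.

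Hist1h1t was at 7.67, 8.005, 8.30, 9.26 and 8.58 in shTet1, at 9.09, 8.79, 8.55, 10.19 and 8.71 in shTet2, and at 8.27, 8.19, 9.14, 10.03 and 8.95 in shScr. It was higher in shTet2 than in shTet1 in 5 of 5 pairs, by 0.70 ± 0.36 (limma adjusted p = 0.361, with the block 0.0167). Without shTet2 replicate 4 that difference was 0.42 in the fit without the block. Against shScr it was lower in shTet1 in 5 of 5 pairs, by -0.55 ± 0.36, which passed in neither fit (limma adjusted p = 0.601, with the block 0.0841). Without the block, this difference ranged from -0.78 to -0.27 when 1 library was left out. Of the blocked fits that left out a library, Hist1h1t was called in 10 of 15 and Hist1h2aa in 9 of 15.

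**Figure D3:**
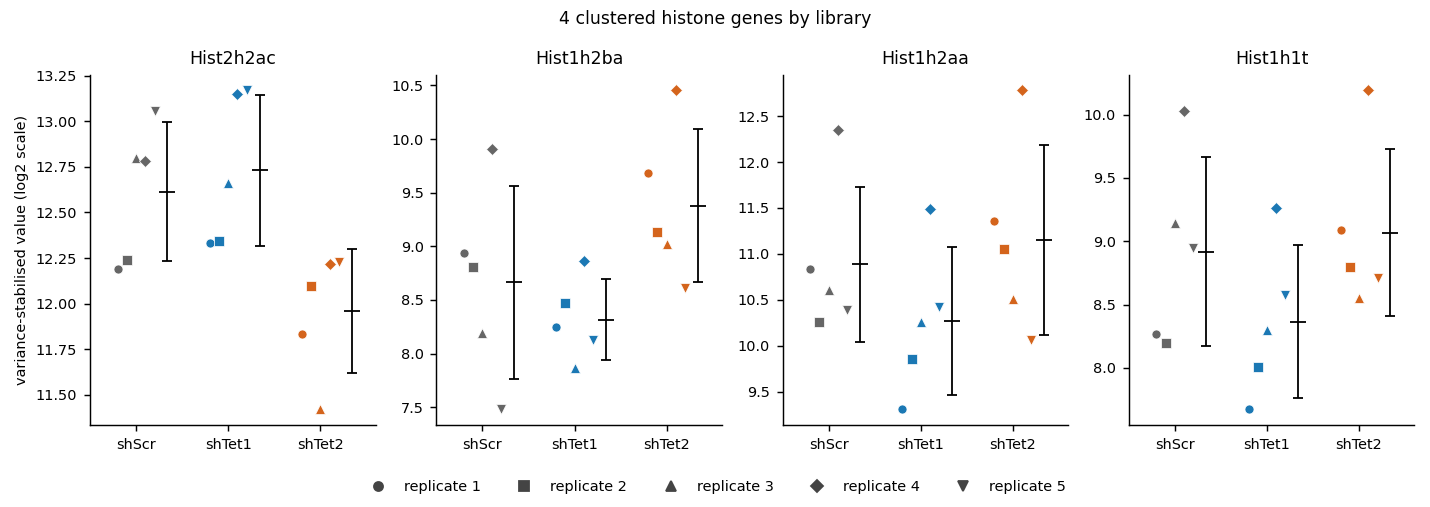
Deposited values (log2 scale) of Hist2h2ac, Hist1h2ba, Hist1h2aa and Hist1h1t in the 15 libraries, with marker shapes for the replicate number and bars for the mean ± SD of 5 libraries. For Hist2h2ac the shTet2 points lie below all shTet1 points, and for Hist1h2ba, Hist1h2aa and Hist1h1t replicate 4 is the highest point of each group.

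Histone RNA also differed between replicate numbers, in the same way in each group for many genes. The labels give no batch, and name more than 1 method of RNA extraction without saying which library had which, so the replicate numbers are used here only as labels and no test was made. In all 3 groups, replicates 1 and 2 lay on average above replicates 3 to 5 for 10 of 11 H3 genes and 9 of 13 H4 genes, against 19.7% of all genes tested. They lay below for 14 of 19 H2A and 5 of 6 H1 genes, against 25.4% of all genes. The median of replicates 1 and 2 minus replicates 3 to 5, averaged over groups, was 0.69 for H4, 0.53 for H3, 0.13 for H2B, -0.33 for H1 and -0.45 for H2A.

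The genes also departed from their type in places. Hist1h4d, the most abundant H4 gene, was lower in replicates 1 and 2 (-0.53, averaged over groups), while the other H4 genes were at 0.15 to 0.92. Hist1h2bn and Hist1h2bb, of H2B, were lower as well, at -0.65 and -0.56. Hist2h3c1 was at -0.03, where the other H3 genes were at 0.31 to 0.74, but the H2A genes read as 1 measurement with it, Hist2h2aa1 and Hist2h2aa2, were at -0.06 and 0.00 and the value cannot be assigned to H3.

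The ratio of all H2A reads to all H4 reads summed this up in 1 number per library. H2A and H4 are the types with the lowest and highest medians above, so a lower ratio in replicates 1 and 2 follows largely from that choice. It describes the same values again and is no separate evidence. It was 1.52 and 1.48 in shScr replicates 1 and 2 and 2.33, 2.17 and 2.74 in replicates 3 to 5. In shTet1 it was 1.47 and 1.18, then 2.11, 1.96 and 1.86. In shTet2 it was 1.30 and 1.54, then 1.78, 1.59 and 1.64. The 6 libraries numbered 1 or 2 lay between 1.18 and 1.54 and the 9 others between 1.59 and 2.74, without overlap.

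**Figure D4:**
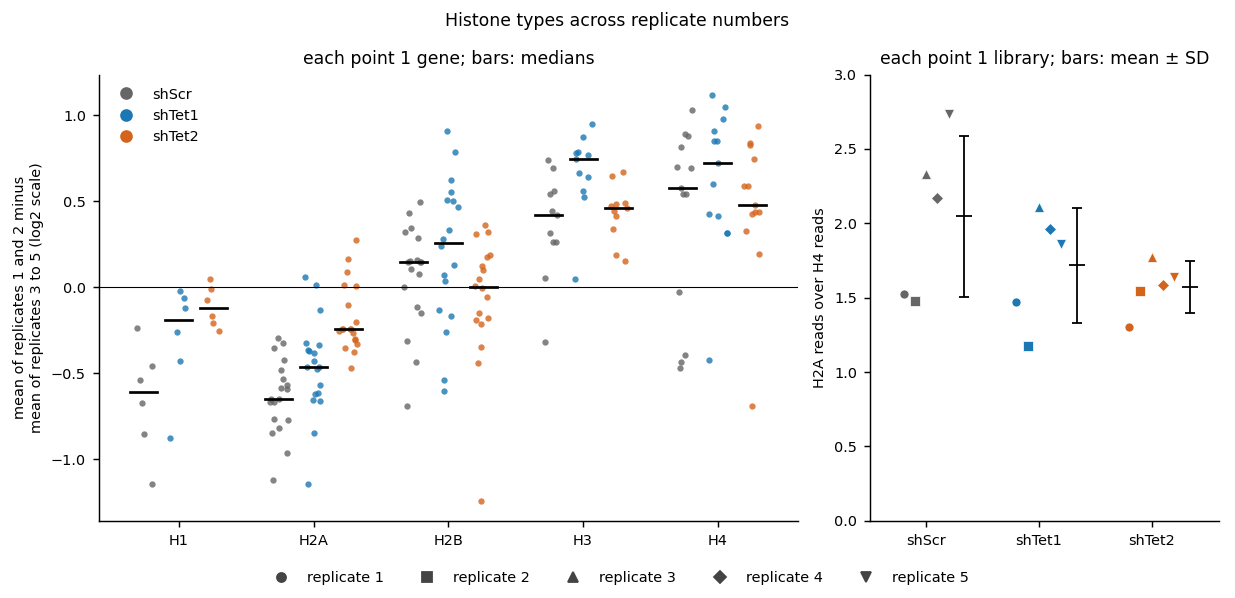
Left, mean of replicates 1 and 2 minus mean of replicates 3 to 5 on the log2 scale for each gene by histone type and group, with bars at the medians. Right, H2A reads over H4 reads in each library, with bars for the mean ± SD of 5 libraries. H3 and H4 genes lie mostly above 0 and H1 and H2A genes mostly below 0 in each group, and the ratio is lower in replicates 1 and 2 than in replicates 3 to 5.

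Genes of a type also varied together within groups. Over deviations from the group means in 15 libraries, the median correlation was 0.94 among H3 genes, 0.87 among H1, 0.85 among H2A, 0.70 among H4 and 0.43 among H2B. Between types it was 0.81 for H1 with H2A and 0.79 for H3 with H4, but -0.09 for H2A with H4 and 0.14 for H2A with H3. These libraries share their preparation and the genes share sequence, so the correlations are descriptions only.

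In the divergent arrangement typical of these clusters, an H2A and an H2B gene start back to back. There were 12 such pairs, with starts 168 to 306 bases apart. The correlation of deviations within a pair had a median of -0.01 and ranged from -0.67 for Hist1h2ah with Hist1h2bk to 0.79 for Hist1h2aa with Hist1h2ba. The latter pair shares the octamer window printed above, and Hist1h2ae with Hist1h2bg (0.78) and Hist1h2ah with Hist1h2bk each share a window of their own. The windows of Hist2h2ac and Hist1h2ac also lie between the starts of their pairs with Hist2h2be (0.31) and Hist1h2bc (-0.27). No promoter was matched for these 2 H2B genes. Pairs with an octamer window between their starts thus lay across the range.

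**Figure D5:**
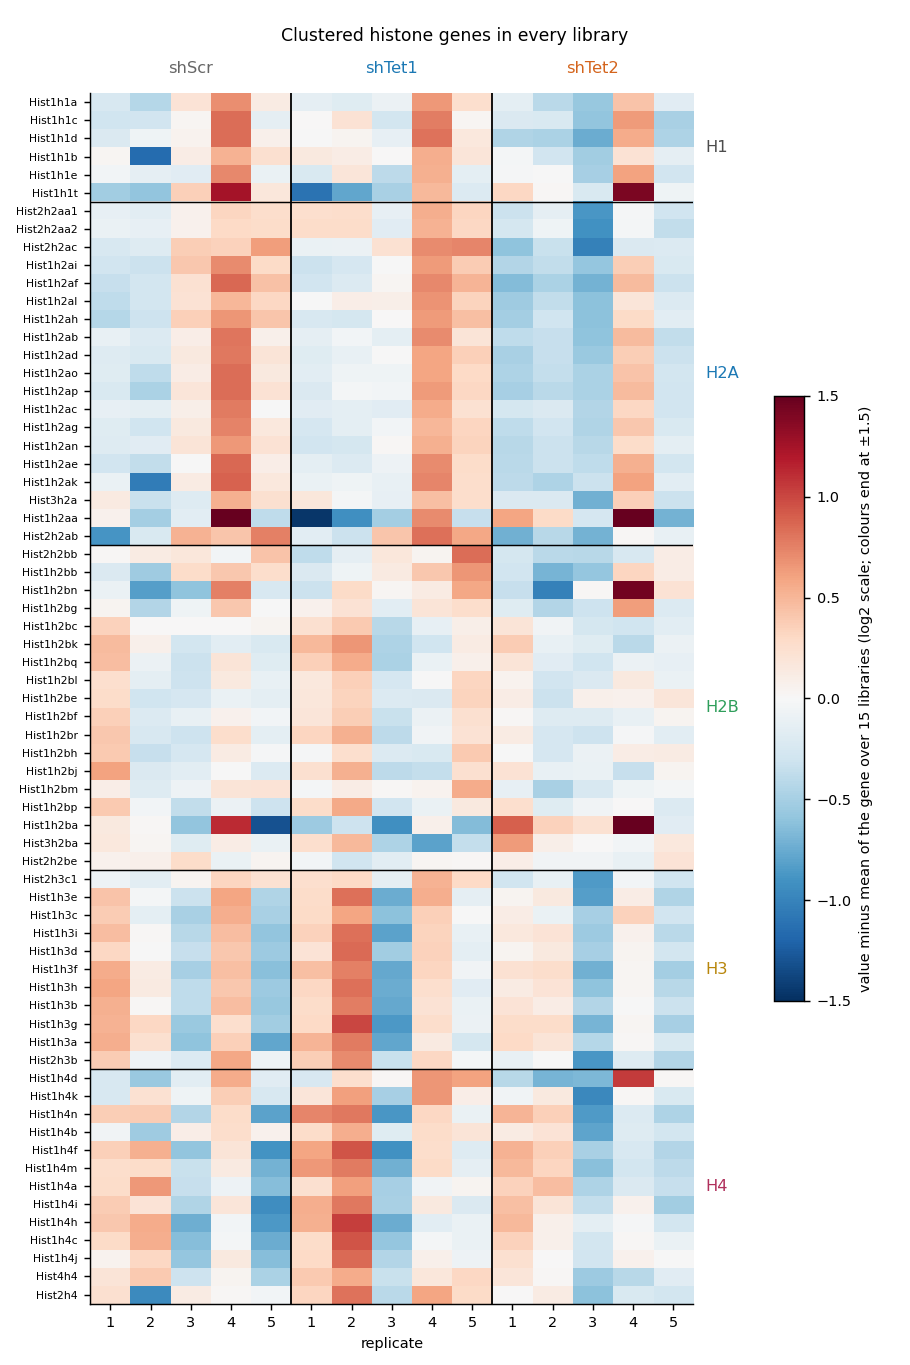
Value of each of the 67 genes minus its mean over 15 libraries (log2 scale, colours end at ±1.5), with libraries in columns by group and replicate and genes in rows by type. Most H1 and H2A genes are highest in replicate 4 of each group, and most H3 and H4 genes are higher in replicates 1 and 2 than in replicates 3 and 5.

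Genes that act on histone mRNA or run alongside it showed few calls. Of 38 genes for transcription and processing of histone mRNA, none was called in any comparison. Slbp, whose product binds the stem-loop, differed by -0.19 ± 0.17 in shTet1 and by -0.26 ± 0.17 in shTet2 against shScr (limma adjusted p = 0.736 and 0.606). Npat, the coactivator of histone gene transcription, differed by 0.09 ± 0.11 and -0.03 ± 0.11 (limma adjusted p = 0.820 and 0.961). With the block, 2 of the 38 (5.26%) fell in shTet2 relative to shTet1, against 4.65% of all genes tested. They were Papd5 and Pou2f1, the gene of OCT1, which were named after their values were seen. Pou2f1 differed by -0.61 ± 0.20 from shTet1 (limma adjusted p = 0.111, with the block 0.0472) and by -0.80 ± 0.20 from shScr (limma adjusted p = 0.0919). Of 25 histone chaperone genes none was called, and with the block 1 (4%) was higher and 3 (12%) were lower in shTet2 than in shTet1, against 6.52% and 4.65% of all genes.

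Of 48 genes of S phase and DNA replication, 2 fell in shTet2 relative to shTet1, with a median of -0.13 for the list. They were Rfc1, the large subunit of the clamp loader, at -0.46 ± 0.12 (limma adjusted p = 0.0334) and Rrm1, the large subunit of ribonucleotide reductase, at -0.49 ± 0.13 (limma adjusted p = 0.0416). The count of 2 is 4.17% of the list, against 1.36% of all genes tested. With the block 6 of the 48 (12.5%) fell, against 4.65% of all genes. In shTet1 against shScr none of the 48 was called and their median was -0.01, where that of the clustered histone genes was 0.12. In shTet2 against shScr none was called, and the medians were -0.14 and -0.13.

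Replacement histones are made outside S phase from polyadenylated mRNAs, and 14 genes for them were found, of which 11 were tested. H2afy, the gene of macroH2A1, rose in shTet1 by 0.98 ± 0.18 (limma adjusted p = 0.0470), from 10.70 ± 0.26 in shScr to 11.68 ± 0.35 (SD, n = 5). It was 0.93 lower in shTet2 than in shTet1 on the log2 scale (difference -0.93 ± 0.18, limma adjusted p = 0.00508). No other tested gene of the list was called in any comparison without the block. The medians of the 11 were 0.05, -0.06 and -0.15 in the order in which the comparisons are given above. With the block, 3 of the 11 (27.3%) fell in shTet2 relative to shTet1, against 4.65% of all genes tested. In shTet1 against shScr, 2 (18.2%) rose and 1 (9.09%) fell with it, against 2.54% and 2.26% of all genes. Of 145 genes whose names mark them as ribosomal proteins or their relatives, 142 were tested and none was called without the block. With the block, 1 was higher and 1 lower in shTet2 than in shTet1, and 1 was lower in shTet1 than in shScr.

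Among the genes whose deviations were most like the median of the clustered histone genes were Sult5a1 (r = 0.94), Pex5l (0.90), Dqx1 (0.90) and Fabp3 (0.88) over the 15 libraries. They were taken from the 5 highest of all other genes tested, and nothing follows from the likeness about their function.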

How the data were processed

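Directional rRNA-depleted libraries were made from total RNA and sequenced as single-end 75-base reads. The authors trimmed reads (Trim Galore 0.3.3), aligned them to mm9 (TopHat2 2.0.9), counted them per gene in Seqmonk and normalised with DESeq2. Reads that fit more than 1 position equally well were assigned to 1, and use of strand in counting is not given in the sources used here. The deposited gene values are variance-stabilised by the authors, on a log2 scale whose minimum (4.25) stands for 0 reads. Columns of the table that belong to no sample here numbered 0. The deposited repeat table was not used.

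Undoing the transformation gave whole reads (within 0.05) for 100% of values below 10000 reads. Normalised reads are reads divided by the authors' size factors. The 26061 genes were filtered to 19490 above the minimum in at least 5 of 15 libraries. Differences came from limma 3.58.1 in R 4.3.3 (lmFit and eBayes with trend, all 15 libraries, group as the only term, two-sided), with Benjamini-Hochberg adjustment over all genes tested and a threshold of 0.05. Scripts were tested on simulated data. Nothing says that replicates came from separate cultures, so p-values measure the spread between these libraries, which differed by far more than counting error (chi-square per degree of freedom at least 22.8 in 30 pairs).

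Deviations from group means of same-numbered libraries correlated across genes at 0.374 to 0.657 for shTet1 with shScr and at 0.330 to 0.731 for shTet2 with shTet1, so numbers were taken to pair these groups. For shTet2 with shScr the lowest was 0.00789, and the block for that comparison is given in the closing section only. The block was fitted to all 15 libraries in every comparison.

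Named genes were, per histone type, the 2 with the highest mean value, per comparison those called and the 2 with the lowest p-value in each direction, the highest outside Hist1, Slbp, Npat and called genes of the lists. The members and lists were chosen with earlier results of these data known. Gene models were from GENCODE vM1 (mm9), and promoters from RefSeq. Of the 5 genes most like the histone genes, 1 is not reported here.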

Additional observations from a re-analysis of the deposited data

Results flagged for a closer look

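A library of 5 stood apart from the other 4 of its group in 5 of the 69 groups of values examined (17 named genes and 6 sums, in 3 groups each). A library is counted where its gap to the nearest other exceeds 0.71 of the whole range, which chance gives in about 1 of 20 groups. Hist2h4 was at 8.07 in shScr replicate 2, where the next was 8.98. Hist1h2aa was at 12.35 in shScr replicate 4, where the next was 10.84. Hist1h2be was at 10.96 in shTet2 replicate 2, with the next at 11.35. The summed H1 reads were 4691 RPM in shScr replicate 4 (next 2703) and 4541 in shTet1 replicate 4 (next 2902). Both replicate 4 libraries had a receptor share above 40 RPM, and the part of that background in the H1 sum was not tested.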

How the results depend on the processing

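For shTet2 minus shTet1, the count of called histone genes was 1 as reported, 0 with all genes above the minimum in at least 1 library, without the variance trend, with only the groups compared, with voom, and within replicates 1 and 2 or 3 to 5 (fewer libraries). It was 3 with a mean at least 2 units above the minimum or the receptor share as a covariate, 4 with median centring or array weights, 6 with replicates 1 and 2 against 3 to 5 as a term, and 21 with the replicate block. Leaving out 1 library gave 0 to 3: 0 without shScr replicate 3, shTet1 replicates 4 or 5, or shTet2 replicates 1, 2 or 3, and 2 or 3 without shScr replicates 2 or 4, shTet1 replicate 3 or shTet2 replicate 4. The causes were not tested. In the other comparisons each alternative gave 0, except that the replicate block gave 8 for shTet2 minus shScr (1 higher, 7 lower, against 4.31% of all genes), where the numbers did not pass as pairs. With the block, leaving out 1 library gave 0 to 1 for shTet1 minus shScr, 0 to 12 for shTet2 minus shScr and 11 to 29 for shTet2 minus shTet1 (13 without shTet2 replicate 3).

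Median differences kept their direction in 31 of 31 fits for shTet2 minus shScr (-0.23 to -0.03) and for shTet2 minus shTet1 (-0.43 to -0.17), and in 30 of 31 for shTet1 minus shScr (-0.01 to 0.27). Median centring moved the median of all genes in shTet2 minus shScr from 0.04 to -0.07 and that of the histone genes from -0.13 to -0.23. The share of reads, as log2 of the ratio of means, kept its direction without any single library: 0.04 to 0.29 for shTet1 over shScr, -0.32 to -0.01 for shTet2 over shScr and -0.46 to -0.19 for shTet2 over shTet1. No named gene changed direction where it was called. The alternatives that left out the libraries numbered 4, split the replicate numbers or combined the block with a left-out library were chosen after seeing the data. With 5 libraries a group, the 95% interval of a difference had a median half-width of 0.47 on the log2 scale without the block and 0.27 with it, before adjustment over genes.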
